A study of Mus with 12 samples.

Results

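In mouse whole blood, 10 genes of natural killer (NK) cells and cytotoxic lymphocytes were followed: Gzma, Gzmb, Prf1, Nkg7, Ccl5, Ncr1, Klrd1, Klrk1, Klrb1c and Klre1. They were chosen by name as receptors or effectors of killer lymphocytes, 10 of the 25247 genes in the deposited blood table. The rule itself used no measured value, but it was set with earlier results of these data known. Blood was taken on day 30 from female BALB/c mice that were 6 weeks old when obtained, with 3 libraries in each of 4 groups. Solvent mice received acetone and olive oil alone on shaved back skin and one ear. DNCB mice received 2,4-dinitrochlorobenzene, a contact sensitiser, on the same sites, at 1% in 4 sensitisations and then at 0.5% in 6 challenges, which gives a dermatitis used as a model of atopic dermatitis. scMSC and scivMSC mice received the same DNCB and, in 4 injections, 2e6 human umbilical cord mesenchymal stem cells (MSC) each time. The cells went under the skin beside the lesion (100 µL, scMSC), or in equal parts under the skin and into the tail vein (50 µL each, scivMSC). No injection of carrier solution is described for Solvent or DNCB mice, so injection and cells cannot be told apart, and the MSC are human cells in mice with an intact immune system. Replicates carry only a number, so p-values measure the spread between these libraries.

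NK cells are innate lymphocytes that kill infected, stressed or transformed cells without prior priming. They read a target through pairs of activating and inhibitory receptors, and on activation they release granules that hold perforin and granzymes. CD8+ T cells that have become effectors use the same granules and share several of the receptors. In whole blood the lymphocytes are a minority among red cells, platelets and myeloid cells, so a transcript's level follows both how many such cells the blood holds and how much each cell makes. Fewer cells of a type and less RNA per cell cannot be told apart in these data.

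Each of the members has its own place in the genome, by the table's coordinates, which match the mouse build GRCm38. The granule genes are spread over separate chromosomes: Gzma at chr13:113093825-113100981 on the minus strand, Gzmb at chr14:56258838-56262260 on the minus strand, Prf1 at chr10:61297833-61304680 on the plus strand and Nkg7 at chr7:43437073-43438249 on the plus strand. Ccl5 lies at chr11:83525778-83530518 on the minus strand and Ncr1 at chr7:4337724-4345164 on the plus strand. The 4 lectin-like receptor genes all lie on chromosome 6 within 845 kb, in the NK gene complex. Klre1 (chr6:129577905-129585827, plus strand), Klrd1 (chr6:129591782-129598775, plus strand) and Klrk1 (chr6:129610323-129623864, minus strand) fall within 46.0 kb of each other, and Klrb1c lies apart at chr6:128778485-128789215 on the minus strand. None of the 10 gene spans overlaps another gene in the table. Some lectin-like receptor families hold near-identical copies whose content differs between strains. How reads from BALB/c were shared among such copies is not given in the sources used here. Values of lectin-like receptor genes, with Klra3 and Klra17 below, are less certain to the extent that they have such copies.

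All 10 transcripts had their highest group mean in Solvent blood and were lower in each of the other groups. Levels are given as FPKM, fragments per kilobase of gene relative to the library's total, so they can be compared between genes. Summed over the 10 genes, Solvent libraries held 48.9 to 62.4 FPKM, DNCB libraries 21.8 to 26.8, scMSC libraries 12.4 to 29.9 and scivMSC libraries 10.1 to 24.6. No library of the 3 DNCB-treated groups reached the lowest Solvent library, while those 3 groups overlapped each other. Relative to the Solvent mean, the members' means in DNCB ran from 23.7% (Klrd1) to 65.1% (Gzmb), with a median of 41.1%. In scMSC they ran from 20.8% (Ncr1) to 62.2% (Klrk1), median 36.8%, and in scivMSC from 13.1% (Ncr1) to 32.6% (Ccl5), median 22.0%.

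Depth and blood composition set the scale of these values. Libraries held from 52.2e6 to 65.1e6 estimated counts, and haemoglobin genes took 91.3 to 95.6% of summed FPKM, with the lowest share in a DNCB library and the highest in a scivMSC library. Low counts cluster at multiples of 4, so 12 counts, read as 3 fragments, is taken as the floor below which a value is not told from 0, and this floor covers counting error only. Of the 10 members, 7 reached the level needed for testing (1 FPKM or more in 3 or more libraries): Gzma, Gzmb, Prf1, Nkg7, Ccl5, Ncr1 and Klrd1. Klrk1, Klrb1c and Klre1 did not, and they are described from their values and from the fit run on every gene.

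Gzma encodes granzyme A, a granule protease that perforin delivers into the target cell, and it was the most abundant of the 10 in Solvent blood. It stood at 19.7, 21.4 and 17.9 FPKM in Solvent replicates 1 to 3, at 6.92, 8.71 and 5.90 in DNCB, at 9.61, 2.66 and 4.65 in scMSC and at 9.68, 4.07 and 2.92 in scivMSC. The 3 Solvent libraries lay well above all 9 others, and the DNCB, scMSC and scivMSC libraries overlapped, with replicate 1 of each MSC group higher than every DNCB library.

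Gzmb encodes granzyme B, the protease of the same granules that triggers apoptosis of the target. It was at 1.44, 2.18 and 2.61 FPKM in Solvent, 1.29, 1.44 and 1.33 in DNCB, 1.52, 0.415 and 0.663 in scMSC, and 1.04, 0.0703 and 0.526 in scivMSC. Solvent and DNCB libraries barely separated, since the lowest Solvent and the highest DNCB value both round to 1.44, and the scivMSC library at 0.0703 rested on 6 counts, under the floor. In Solvent blood the mean of Gzma, 19.7 FPKM, stood against 2.08 FPKM for Gzmb.

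Prf1 encodes perforin, which forms the pore through which granzymes enter. Its libraries read 3.76, 3.51 and 3.01 FPKM in Solvent, 1.42, 1.35 and 1.49 in DNCB, 1.80, 0.910 and 1.25 in scMSC, and 1.11, 0.187 and 0.431 in scivMSC. The DNCB libraries were tightly grouped below Solvent, the scMSC libraries spread around them, and all 3 scivMSC libraries lay below every DNCB library.

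Nkg7 encodes a granule membrane protein needed for granule release. It was at 10.2, 8.12 and 6.58 FPKM in Solvent, 4.36, 5.44 and 2.89 in DNCB, 4.68, 2.38 and 3.55 in scMSC, and 3.09, 1.03 and 3.72 in scivMSC. Solvent stood apart from the other groups, which overlapped one another.

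Ccl5 encodes the chemokine RANTES, which effector lymphocytes and platelets carry, and it was the member next to Gzma in level. It was at 16.3, 20.1 and 13.7 FPKM in Solvent, 5.52, 7.06 and 8.84 in DNCB, 9.62, 4.54 and 4.79 in scMSC, and 8.01, 4.35 and 4.02 in scivMSC. The Solvent libraries again lay above all others, with wide overlap among the DNCB-treated groups.

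Ncr1 encodes NKp46, an activating receptor that among blood cells marks NK cells and related innate lymphocytes rather than most T cells. Its values were 3.72, 3.56 and 2.86 FPKM in Solvent, 1.07, 1.67 and 1.01 in DNCB, 0.835, 0.541 and 0.735 in scMSC, and 0.623, 0.211 and 0.492 in scivMSC. Of the 10 members it alone had all scMSC libraries below all DNCB libraries, and its scivMSC libraries were below DNCB too, while the MSC groups overlapped each other.

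Klrd1 encodes CD94, which pairs with NKG2 chains to read the non-classical MHC molecule Qa-1. It was at 2.59, 2.20 and 1.53 FPKM in Solvent, and at 0.607, 0.533 and 0.355 in DNCB. In scMSC it was at 1.02, 0.674 and 0.573, and in scivMSC at 0.629, 0.0969 and 0.410, of which 0.0969 rested on 8 counts, under the floor. Its scMSC mean of 0.757 ± 0.236 FPKM (SD, n = 3) exceeded its DNCB mean of 0.498 ± 0.130 FPKM (SD, n = 3), with overlap. Klrk1 was the other gene with this order, and the remaining 8 had their means ordered Solvent, DNCB, scMSC and scivMSC from high to low.

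The lectin-like receptors that missed the level for testing were all under 0.5 FPKM in every library. Klrk1 encodes NKG2D, an activating receptor for stress-induced ligands, and read 0.352, 0.466 and 0.298 FPKM in Solvent, 0.125, 0.212 and 0.118 in DNCB, 0.394, 0.194 and 0.106 in scMSC, and 0.166, 0.0234 and 0.0528 in scivMSC. DNCB and scivMSC lay below Solvent without overlap, and scMSC replicate 1 fell inside the Solvent range. The value of scivMSC replicate 2 rested on 10 counts, under the floor.

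Klrb1c encodes an NKR-P1 receptor, the NK1.1 antigen of strains such as C57BL/6. It read 0.381, 0.407 and 0.271 FPKM in Solvent, 0.285, 0.238 and 0.0712 in DNCB, 0.227, 0.0708 and 0.0830 in scMSC, and 0.0659, 0.0454 and 0.0445 in scivMSC. The scivMSC values rest on 12, 8 and 8 counts, all at or under the floor, and DNCB replicate 1 lay inside the Solvent range. Klre1, a partner chain of inhibitory and activating lectin-like receptors, read 0.384, 0.399 and 0.168 FPKM in Solvent, 0.176, 0.161 and 0.0418 in DNCB, 0.146, 0.0616 and 0.0536 in scMSC, and 0.144, 0.0495 and 0.0195 in scivMSC. DNCB overlapped Solvent through the low Solvent replicate 3, and both MSC groups lay below Solvent. For Klre1, DNCB replicate 3, scMSC replicate 3 and scivMSC replicates 2 and 3 rested on 10, 12, 11 and 4 counts, at or under the floor.

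**Figure D1:**
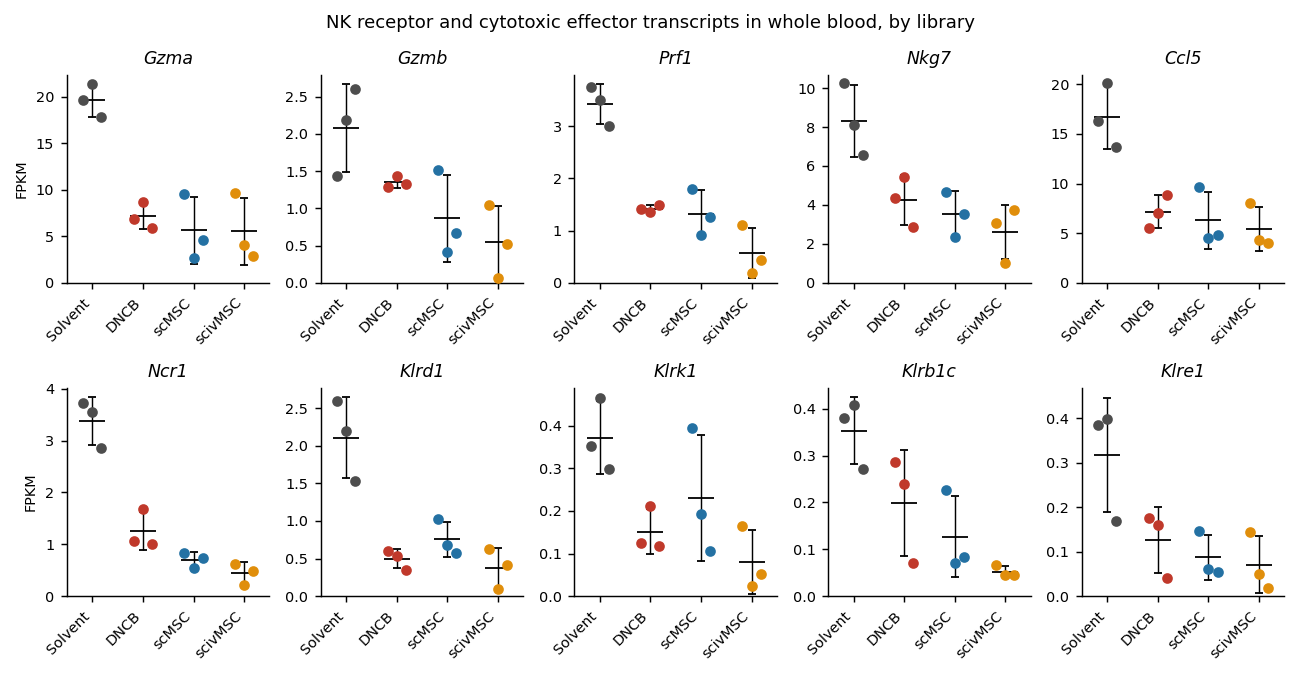
Level of each of the 10 genes in FPKM (vertical axis, from 0, its own scale in each panel) in the 12 libraries, by group. Points are libraries in order of replicate number, the wide bar is the group mean and the whiskers are 1 SD (n = 3). For Gzma the 3 Solvent points sit between 17.9 and 21.4 FPKM and the other 9 between 2.66 and 9.68.

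DNCB against Solvent asks what repeated sensitiser exposure does to these transcripts. Granzyme A, CD94, NKp46 and RANTES mRNA were lower in DNCB blood, by calls that lay close to the threshold. Of the 10 members, 8 had every DNCB library below every Solvent library, all but Klrb1c and Klre1, where 13.2% of all genes in the table did so. By edgeR's quasi-likelihood test, 4 of the 7 tested members were called lower, against 4.87% of all 5527 genes tested. Of these 4, Klrd1 entered the test only through the Solvent libraries and scMSC replicate 1, and it was not called without that filter. A gene is called when its Benjamini-Hochberg adjusted p is under 0.05 and its fold change is over 2.

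The log2 fold change was largest for Klrd1 among the 7, which fell by 2.03 (SE 0.60, adjusted p = 0.0224). Gzma fell by 1.45 (SE 0.47, adjusted p = 0.0375), Ncr1 fell by 1.42 (SE 0.46, adjusted p = 0.0376) and Ccl5 fell by 1.22 (SE 0.39, adjusted p = 0.0346). Prf1 was at -1.26 with adjusted p = 0.0855, Nkg7 at -0.97 with adjusted p = 0.158, and Gzmb at -0.62 with adjusted p = 0.567, so none of these 3 passed. The 95% interval of Gzmb ran from -2.03 to 0.79. Klrd1 reached the level for testing through the 3 Solvent libraries and scMSC replicate 1, with all DNCB libraries at 0.607 FPKM or lower, and without that filter its adjusted p was 0.0834. Under the filter-free fit Klrk1 was at -1.29 (adjusted p = 0.372), Klrb1c at -0.82 (adjusted p = 0.682) and Klre1 at -1.31 (adjusted p = 0.507).

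These calls lie close to the threshold. With one Solvent or DNCB library left out, the count of called members was 0 without Solvent replicate 1, Solvent replicate 2, DNCB replicate 1 or DNCB replicate 3, and 1 without Solvent replicate 3 or DNCB replicate 2, while 1.61% (without DNCB replicate 3) to 4.14% (without Solvent replicate 3) of tested genes were called lower. The fold changes moved little over the 12 such fits, between -2.22 and -1.84 for Klrd1, between -1.61 and -1.33 for Gzma, between -1.69 and -1.29 for Ncr1 and between -1.40 and -1.07 for Ccl5. With libraries scaled by TMM, which sets the typical gene to no change, 6 of the 7 were called lower, all but Gzmb, against 11.5% of tested genes. With no filter on level, which puts all 25247 genes under one adjustment, only Gzma was called (adjusted p = 0.0443), against 1.26% of genes.

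scMSC against Solvent and scivMSC against Solvent ask how far blood of MSC-treated mice stood from blood never exposed to DNCB. In scMSC blood NKp46 mRNA was lower than in Solvent, at a log2 change of -2.26 (SE 0.48 and adjusted p = 0.0431), and it was the 1 tested member called, against 0.326% of tested genes called lower. Groups did not overlap for 8 of the 10 members, all but Gzmb and Klrk1, against 23.5% of all genes. Gzma (-1.81, adjusted p = 0.0925) and Ccl5 (-1.41, adjusted p = 0.0925) came next by unadjusted p but did not pass. This count of called members depended on which other libraries shared the fit. It was 0 when any single Solvent or scMSC library was left out, and 0 without DNCB replicate 1 or 3 or scivMSC replicate 3. In those fits only 0 to 19 of the 5527 tested genes were called lower. The count was 4 without scivMSC replicate 1, against 8.68% of tested genes called lower, and 6 without scivMSC replicate 2, against 12.9%. With only the Solvent and scMSC libraries in the fit, all 7 tested members were called lower, against 18.4% of tested genes. Under TMM scaling Ncr1 (-1.76, adjusted p = 0.00202) and Gzma (-1.38, adjusted p = 0.0245) were called, against 1.21% of tested genes.

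In scivMSC blood all 10 members had every library below every Solvent library, against 37.1% of all genes. All 7 tested members were called lower, against 59.2% of tested genes, so a call here was the more frequent outcome for any gene. Ncr1 showed the largest difference, -2.91 (SE 0.49, adjusted p = 0.000247), followed by Prf1 at -2.55 (SE 0.52, adjusted p = 0.00073) and Klrd1 at -2.39 (SE 0.61, adjusted p = 0.00306). Klrd1 entered the test only through the Solvent libraries and scMSC replicate 1. In edgeR's fit without that filter it was at -2.39 (adjusted p = 0.00704). Gzmb, Gzma, Nkg7 and Ccl5 were at -1.90, -1.82, -1.66 and -1.61. The typical tested gene was at -1.47 in this comparison, so Ncr1 lay 1.44 below it and Ccl5 only 0.14 below it. Under TMM scaling 3 members were called lower, Ncr1 at -1.54 (adjusted p = 0.000542), Prf1 at -1.31 (adjusted p = 0.004) and Klrd1 at -1.08 (adjusted p = 0.0406), against 13.4% of tested genes. Ccl5 (-0.22), Nkg7 (-0.26), Gzma (-0.49) and Gzmb (-0.79) were not called with that scaling. TMM was run only with the filter on level, so it gives no filter-free value of Klrd1. In the filter-free fit Klrb1c (-2.67, adjusted p = 0.028) and Klrk1 (-2.18, adjusted p = 0.0119) were called lower in scivMSC, against 28.2% of genes. Klre1 was at -2.11 (adjusted p = 0.0958). Every scivMSC library of Klrb1c was at or under the floor. The same held for scivMSC replicate 2 of Klrk1, Klre1, Klrd1 and Gzmb, and for scivMSC replicate 3 of Klre1.

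**Figure D2:**
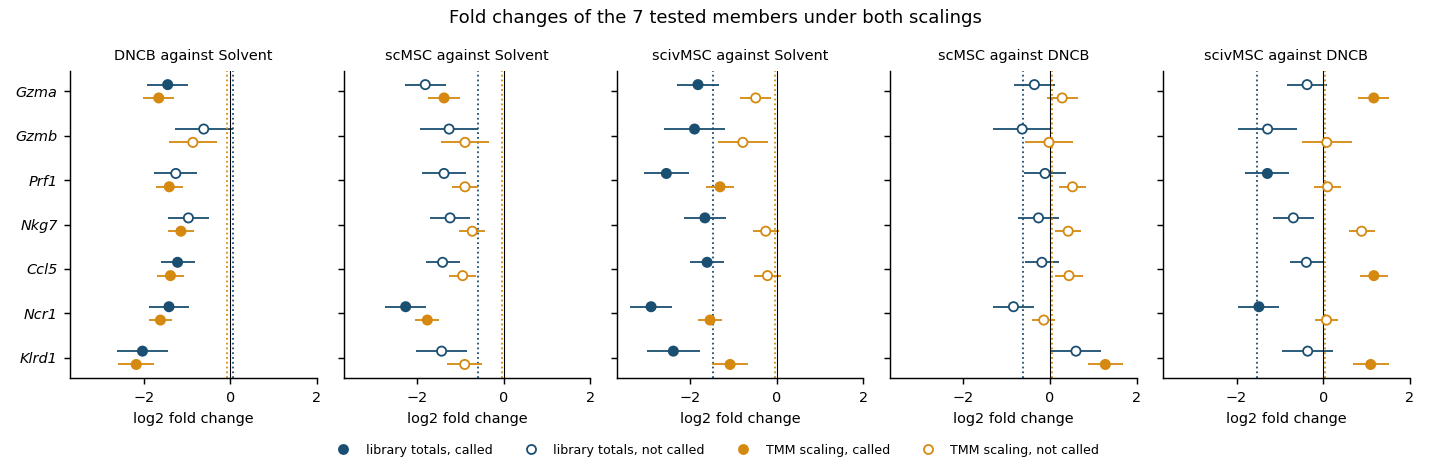
Log2 fold change (horizontal axis) of the 7 tested genes in 5 comparisons, from edgeR, with libraries scaled by total counts (blue) and by TMM (orange). Filled points are called, open points are not, bars are 1 SE, and dotted lines mark the median of all 5527 tested genes under each scaling. Against Solvent every point lies left of 0 under both scalings, while all 7 change side between the scalings in scivMSC against DNCB, and 4 of the 7 (Gzma, Prf1, Nkg7 and Ccl5) in scMSC against DNCB.

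The comparisons of each MSC group with DNCB ask whether MSC treatment changed these transcripts in mice that all received DNCB. For scMSC the data show no called member under library totals. Of the 10 members only Ncr1 had all scMSC libraries below all DNCB libraries, against 19.5% of all genes. By edgeR 0 of the 7 tested members passed the threshold in either direction, and 0 had an unadjusted p under 0.05, where 24.9% of tested genes were called lower and 1.27% higher. Ncr1 was at -0.84 (SE 0.46, adjusted p = 0.187), with a 95% interval from -1.83 to 0.14. Klrd1 was at 0.60 (SE 0.59, adjusted p = 0.462), with an interval from -0.64 to 1.84. Prf1, Ccl5, Nkg7, Gzma and Gzmb were at -0.12, -0.19, -0.27, -0.36 and -0.64, all with intervals that include both directions. The typical tested gene was at -0.63 here, and under TMM, which moves it to 0.06, Klrd1 was called higher at 1.28 (adjusted p = 0.029), against 8.74% of tested genes called higher, while Ncr1 was at -0.15. DESeq2 and limma on log2(FPKM + 1) and on log2(FPKM + 0.1) called 0 of the 7 as well. Of the 5527 tested genes they called 1564, 915 and 1451 lower.

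For scivMSC against DNCB, NKp46 and perforin mRNA fell under library totals. On the log2 scale Ncr1 fell by 1.49 (SE 0.47, adjusted p = 0.0114) and Prf1 fell by 1.29 (SE 0.51, adjusted p = 0.0324), and in this comparison 62.0% of tested genes were called lower. Ncr1, Prf1, Gzmb and Klrb1c had all scivMSC libraries below all DNCB libraries, 4 of 10 members against 32.9% of all genes. Gzma (-0.37), Klrd1 (-0.36), Ccl5 (-0.39), Nkg7 (-0.69) and Gzmb (-1.28) did not pass. The typical gene was at -1.53, so Ncr1 at -1.49 and Prf1 at -1.29 were near it, and Gzma, Klrd1 and Ccl5 stood more than 1 log2 unit above it.

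The direction depended on the scaling in this comparison. Under TMM, Gzma at 1.17 (adjusted p = 0.0148), Ccl5 at 1.17 (adjusted p = 0.00744) and Klrd1 at 1.10 (adjusted p = 0.0398) were called higher in scivMSC than in DNCB, against 20.6% of tested genes called higher, and Ncr1 and Prf1 were at 0.08 and 0.10. Platelet genes moved the same way as Ccl5 under that scaling, with all 8 of the platelet list called higher (median 1.98, where the typical gene was at 0.04). The erythroid list did so too, with all 7 tested genes called higher (median 1.92). In DNCB against Solvent under library totals, by contrast, the platelet median was 1.01 and Ccl5 was at -1.22. The summed level of the platelet list was 594 to 800 FPKM in DNCB and 741 to 857 in scivMSC, and the part of platelets in the level of Ccl5 was not tested. Without DNCB replicate 2 the count of called members under library totals was 0, against 53.0% of tested genes called lower. It was 1 without DNCB replicate 1, DNCB replicate 3, scivMSC replicate 2 or scivMSC replicate 3, against 3056 to 3490 of 5527 genes. Without scivMSC replicate 1 it was 4, against 70.6%. That library was the highest of its group for 9 of the 10 members and for 80.3% of tested genes.

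The 2 routes of MSC delivery were compared directly as scivMSC against scMSC. No tested member passed by edgeR, where 30.4% of tested genes were called lower, and 1 of the 10, Klrb1c, had all scivMSC libraries below all scMSC libraries, against 22.6% of all genes. Prf1 was at -1.17 (SE 0.51, adjusted p = 0.0807), the only tested member with an unadjusted p under 0.05 (0.0327), and DESeq2 and limma on log2(FPKM + 0.1) each called 1 member lower, against 35.7% and 35.2% of tested genes. Gzma differed least, at -0.01 with a 95% interval from -0.997 to 0.974. Over all 4 groups, edgeR's F test passed for 6 of the 7 tested members, all but Gzmb (adjusted p = 0.0854), where 72.3% of tested genes passed. The comparisons share their Solvent and DNCB libraries, so their values for one gene are not independent of each other.

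Within a library, one gene can be read against another, and such a ratio does not depend on how libraries are scaled. The 7 ratios computed were chosen after values had been seen and were not tested. Cd3e encodes a chain of the T cell receptor complex, so Ncr1 over Cd3e sets an NK transcript against a T cell transcript. It was 0.581, 0.857 and 0.742 in Solvent replicates 1 to 3, 0.634, 1.08 and 0.920 in DNCB, 0.384, 0.241 and 0.249 in scMSC, and 0.566, 0.294 and 0.771 in scivMSC. All 3 scMSC libraries lay below every Solvent and every DNCB library, Solvent and DNCB overlapped, and scivMSC spread across the range of the others. Gzma over Cd3e ran from 3.07 to 5.16 in Solvent, 4.10 to 5.63 in DNCB, 1.18 to 4.42 in scMSC and 4.57 to 8.79 in scivMSC, with every group overlapping Solvent. Prf1 over Gzma, perforin against granzyme A, ran from 0.164 to 0.191 in Solvent, 0.155 to 0.252 in DNCB and 0.188 to 0.342 in scMSC, and was below all of these in scivMSC, at 0.115, 0.0459 and 0.148. The other ratios to Gzma did not set scivMSC apart. Gzmb over Gzma ran from 0.0733 to 0.146 in Solvent, 0.165 to 0.226 in DNCB, 0.143 to 0.158 in scMSC and 0.0172 to 0.180 in scivMSC. Ncr1 over Gzma ran from 0.160 to 0.189 in Solvent, 0.155 to 0.192 in DNCB, 0.0870 to 0.203 in scMSC and 0.0519 to 0.169 in scivMSC. Ccl5 over Cd3e ran from 2.55 to 4.85 in Solvent, 3.27 to 8.06 in DNCB, 1.62 to 4.43 in scMSC and 6.06 to 7.28 in scivMSC, so that scivMSC lay above Solvent and scMSC and inside the DNCB range.

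The T cell list, 11 genes of the T cell receptor complex and its co-receptors, moved with the members between Solvent and DNCB. Its summed level was 112 to 195 FPKM in Solvent, 45.8 to 56.9 in DNCB, 47.9 to 76.3 in scMSC and 15.3 to 35.6 in scivMSC. Of its 11 genes 10 were called lower in DNCB against Solvent, with a median log2 fold change of -1.58 beside -1.26 for the 7 tested members and 0.06 for all tested genes. Trbc2, a T cell receptor chain and the most abundant of the list, fell by 1.48 (adjusted p = 0.00692). Cd8a, a co-receptor chain of CD8+ T cells whether or not they are effectors, fell by 1.78 (adjusted p = 0.00299). Cd28, a co-stimulatory receptor, fell by 1.88 and Cd4, the co-receptor of helper T cells, fell by 1.75. The part of CD8+ T cells in the members' levels was not tested.

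The members' sum over the T cell sum was 0.302 to 0.540 in Solvent, 0.383 to 0.481 in DNCB, 0.220 to 0.392 in scMSC and 0.441 to 0.690 in scivMSC. Solvent and DNCB thus had overlapping proportions of the 2 sums, and the scMSC and scivMSC ranges did not overlap each other.

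In DNCB against Solvent 4.87% of all tested genes were called lower and 15.6% higher. The B cell list was lower as the T cell list was, with 7 of its 7 tested genes called (median -2.11). Cd79a, a chain of the B cell receptor complex, was at -1.98, and Pax5, Ms4a1 and Cd22 were at -2.48, -2.27 and -2.14. All 10 neutrophil genes were called higher (median 4.96), among them S100a9 at 4.39 and the granule and surface genes Ngp, Ly6g and Camp at 6.76, 6.26 and 5.92. Of 8 monocyte genes 3 were called higher (median 0.87), Cd14 at 3.21, Fcgr4 at 3.05 and Csf1r at 1.73. Both called genes of the basophil and mast cell list, Prss34 at 4.60 and Mcpt8 at 2.82, were higher, of 4 tested (median 2.00). Of 8 platelet genes 4 were called higher (median 1.01), with the receptor subunits Gp1bb, Gp1ba and Gp9 at 2.00, 1.56 and 1.28, while the most abundant, Pf4, was at 0.15 (adjusted p = 0.707). No erythroid gene was called (median -0.02), and Hba-a1, a haemoglobin chain, was at 0.10.

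**Figure D3:**
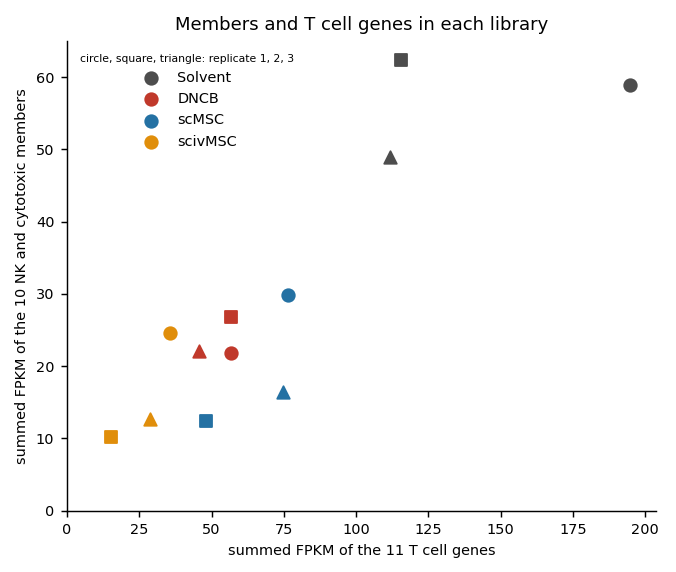
Summed FPKM of the 10 NK and cytotoxic genes (vertical axis) against summed FPKM of the 11 T cell genes (horizontal axis) in each of the 12 libraries, coloured by group, with the marker shape giving the replicate. Solvent libraries lie at 48.9 to 62.4 and 112 to 195 FPKM, apart from all others, and the highest ratios of the members' sum to the T cell sum, 0.690 and 0.663, are in scivMSC libraries.

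Other genes of the killing machinery did not share one direction between Solvent and DNCB. Of 14 further granule and killing genes, 8 were tested, with 4 called higher and 1 lower, beside 15.6% and 4.87% of all tested genes. Srgn, whose product serglycin packs granule proteases in many blood cells, rose by 1.24 (adjusted p = 0.00107), and Rab27a, a GTPase that docks granules in killer cells and in neutrophils, rose by 2.21 (adjusted p = 0.00344). Ctsw, a cathepsin found mainly in NK and CD8+ T cells, fell by 1.33 (adjusted p = 0.0221), from 4.65 ± 1.77 FPKM (SD, n = 3) in Solvent to 1.84 ± 0.357 (SD, n = 3) in DNCB.

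Among 28 further NK receptor genes, 7 were tested, and 3 were called higher and 2 lower in DNCB. Of all tested genes 15.6% were called higher and 4.87% lower. Those called higher are also genes of myeloid cells: Klra17 (Ly49Q, carried by plasmacytoid dendritic cells and myeloid cells) rose by 4.14 (adjusted p = 0.000185), Fcgr3 (an Fc receptor of NK cells, macrophages and neutrophils) rose by 2.98 (adjusted p = 0.000187) and Cd244a (2B4, a receptor of NK cells and some myeloid cells) rose by 2.04 (adjusted p = 0.00584). Il2rb, the beta chain of the receptors for the NK growth factors IL-2 and IL-15, fell by 1.25 (adjusted p = 0.0143), and Cd226, an activating adhesion receptor of NK cells, T cells and platelets, fell by 1.16 (adjusted p = 0.036). Il2rb and Cd226 were named after their values were seen. Neutrophil genes moved with the genes called higher: their summed level was 220 to 445 FPKM in Solvent and 6958 to 10928 in DNCB, and the part of neutrophils in these changes was not tested.

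Of 12 tested receptor adaptors and proximal kinases 3 were called higher and 4 lower, beside 15.6% and 4.87% of all tested genes. Tyrobp (DAP12), Fcer1g and Syk, used by NK and myeloid cells, rose by 2.71, 2.67 and 1.39. Lck, Zap70, Cd247 and Fyn, used in T and NK cells, fell by 1.28, 1.33, 1.35 and 1.01, and these 4 were named after their values were seen. Among 5 tested transcription factors Nfil3, required for NK cell development and induced in activated myeloid cells, rose by 2.97 (adjusted p = 0.000394), and Ets1 was at -1.08 (adjusted p = 0.115). Eomes and Tbx21, the T-box factors of NK cells, were under the level for testing. Eomes had group means of 0.988 ± 0.257 FPKM in Solvent, 0.253 ± 0.0361 in DNCB, 0.369 ± 0.111 in scMSC and 0.119 ± 0.0871 in scivMSC (SD, n = 3), with Solvent above each of the other groups without overlap. Of all genes, 13.2% were lower without overlap in DNCB, 23.5% in scMSC and 37.1% in scivMSC. Values of Tbx21 are not given here. The summed level of the 11 transcription factor genes did not follow Eomes, at 15.7 to 21.8 FPKM in Solvent and 19.9 to 25.7 in DNCB.

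Of 9 tested cytokine, chemokine and receptor genes 2 were called higher and 3 lower, beside 15.6% and 4.87% of all tested genes. Ccr1, a receptor for CCL5 on myeloid cells, rose by 3.09 and Il18rap rose by 2.02, while Ccr7, which homes naive T cells to lymph nodes, fell by 1.76. Of 5 tested ligand genes of NK receptors none was called: H2-D1, a classical MHC molecule read by inhibitory Ly49 receptors, was at 0.28 (adjusted p = 0.533), and all 5 had adjusted p over 0.05 with 0 called under TMM as well.

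**Figure D4:**
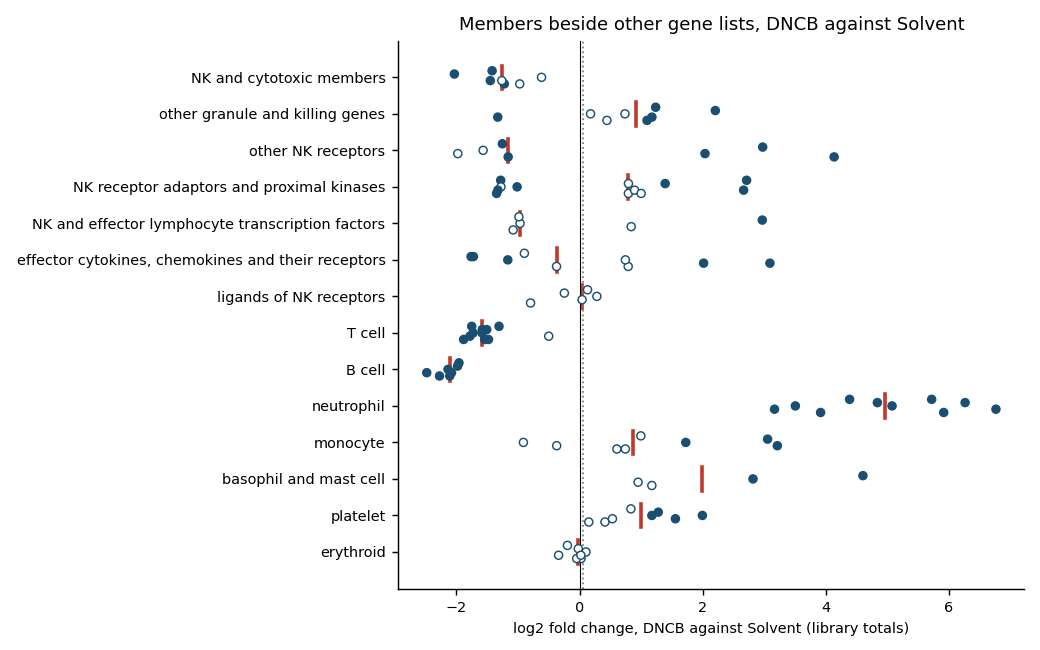
Log2 fold change of DNCB against Solvent (horizontal axis, library totals) for each tested gene of the 10 members and of 13 other gene lists (rows). Filled points are called, red bars are list medians and the dotted line is the median of all tested genes, 0.06. The 7 tested members lie between -2.03 and -0.62, beside the T cell genes, whereas the adaptor and other NK receptor lists hold points on both sides of 0.

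Across the 12 libraries the 7 tested members varied together. Pearson correlations of log2(FPKM + 1) over the 21 pairs ran from 0.705 (Klrd1 with Gzmb) to 0.947 (Ccl5 with Gzma), with a median of 0.886. The points share the group differences above and the haemoglobin share of each library, so these values describe the table and not a link between genes. Among all other tested genes, the 5 most like the mean of the standardised members over the 12 libraries were Erh (r = 0.961), Tagap1 (0.960), Klra3 (0.959), Hspa9 (0.957) and Rbbp7 (0.955). Genes outside every list used here thus shared this order of group means. From Solvent through DNCB and scMSC to scivMSC, mean FPKM was 1.52, 0.698, 0.442 and 0.155 for Erh, and 1.52, 0.682, 0.605 and 0.227 for Tagap1. It was 3.93, 1.80, 1.43 and 0.787 for Hspa9, and 3.41, 1.43, 1.12 and 0.413 for Rbbp7. Klra3, a Ly49 receptor in the same gene complex on chromosome 6, was at 1.40 ± 0.268 FPKM in Solvent, 0.348 ± 0.133 in DNCB, 0.321 ± 0.104 in scMSC and 0.164 ± 0.284 in scivMSC (SD, n = 3). Its SD in scivMSC exceeded its mean, and its change in DNCB of -1.98 did not pass (adjusted p = 0.183).

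Libraries also differed within groups in a way the labels do not explain. scMSC replicate 1 was the highest of its group for all 10 members, where it was highest for 51.3% of tested genes, and scivMSC replicate 1 was the highest for 9, as given above. Solvent replicate 3 was the lowest of its group for 9 of the 10 members and 62.2% of tested genes, and DNCB replicate 3 for 7 members and 64.8% of tested genes. The labels give no sequencing batch or date, so no value within a batch could be computed.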

How the data were processed

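The 12 whole blood RNA libraries were deposited in one table, with labels that give a group and a replicate number. The deposited estimated counts are whole numbers, treated as estimates because they cluster at multiples of 4. The deposited FPKM values count haemoglobin in the library total. The submitters' processing notes name Bowtie 0.12.2, HISAT2 2.0, StringTie 1.3.0 and build mm8, but 96.3% of 21414 gene symbols overlap their RefSeq GRCm38.p6 gene, so coordinates were read as GRCm38. The annotation and any use of strand are not given in the sources used here.

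edgeR 4.0.16 (R 4.3.3) quasi-likelihood tests were run on the counts, scaled by library totals, in a single fit of 4 group means over 12 libraries, on 5527 genes with FPKM of at least 1 in at least 3 libraries. Called genes had Benjamini-Hochberg adjusted p under 0.05 and a fold change over 2. SEs were derived from the F statistic and intervals from its t distribution. Alternatives used TMM, DESeq2 1.42.0 size factors, DESeq2, limma 3.58.1 on log2(FPKM + 1) or log2(FPKM + 0.1), haemoglobin-free totals, other filters, counts divided by 4, only the groups compared, a replicate block, and each library left out. Scripts were tested on simulated data.

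The members, gene lists and tests were chosen with earlier results of these data known. All members are named, and from each other list the most abundant tested gene and up to 3 called genes with the largest non-overlapping change in DNCB against Solvent. Others were chosen after their values were seen, as stated, Cd3e, Eomes and Tbx21 among them. Replicates differed by more than counting noise, with a chi-square per degree of freedom from 28.6 to 71.8. No promoter or protein sequence is shown.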

Additional observations from a re-analysis of the deposited data

How the results depend on the processing

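In the comparisons of DNCB, scMSC and scivMSC with Solvent, the 7 tested members stayed below 0 in all 156 values that the 23 alternatives gave for each comparison. What changed was which of them passed, and how many of all tested genes passed changed too. For DNCB against Solvent, 4 members were called, 6 under TMM, under DESeq2 size factors and with haemoglobin-free totals, 5 by DESeq2 and with only the 2 groups compared, 3 and 4 by limma with pseudocounts of 1 and 0.1, 1 with no filter, 2 of the 2 that reach a mean FPKM of 5, and 0 to 5 with a library left out. Of all tested genes, 269 of 5527 were called lower, 635 under TMM, 587 under DESeq2 size factors and 587 of 5523 with haemoglobin-free totals. DESeq2 called 341 lower, the 2 groups alone 508, and limma 204 and 349. With no filter 319 of 25247 were called lower, with the mean FPKM filter 47 of 1095, and with a library left out 89 to 427. For scMSC against Solvent, 1 was called, 2 under TMM, under DESeq2 size factors, with no filter and by limma with a pseudocount of 0.1, and 2 of 2 with the mean FPKM filter. The count was 3 with haemoglobin-free totals, 4 by DESeq2 and by limma with a pseudocount of 1, 7 with only the 2 groups compared, and 0 to 6 with a library left out. Of all tested genes, 18 of 5527 were called lower, 67 under TMM, 69 under DESeq2 size factors and 216 of 5523 with haemoglobin-free totals. DESeq2 called 441 lower, the 2 groups alone 1016, and limma with pseudocounts of 1 and 0.1 called 167 and 30. With no filter 76 of 25247 were called lower, with the mean FPKM filter 29 of 1095, and with a library left out 0 to 712. For scivMSC against Solvent, 7 were called, 9 of all 10 with no filter, 3 under TMM and under DESeq2 size factors, 2 of 2 with the mean FPKM filter, and 6 to 7 with a library left out. Of all tested genes, 3272 of 5527 were called lower, 7116 of 25247 with no filter, 741 under TMM and 702 under DESeq2 size factors. With the mean FPKM filter 427 of 1095 were called lower, and with a library left out 2633 to 3739 of 5527. For scMSC against DNCB, 0 were called, and 1 (Klrd1, higher) under TMM and under DESeq2 size factors. Of all 5527 tested genes, 1375 were called lower and 70 higher, and 483 and 447 were called higher under those 2 scalings. For scivMSC against DNCB, 2 were called lower, 3 by limma with a pseudocount of 0.1, and 0 with haemoglobin-free totals and by limma with a pseudocount of 1. With the mean FPKM filter 0 of 2 were called, and Ncr1 and Prf1 were not tested there. The count was 1 with no filter and with only the 2 groups compared, 3 in the other direction under TMM and under DESeq2 size factors, and 0 to 4 with a library left out. Of all tested genes, 3427 of 5527 were called lower, 2567 of 5523 with haemoglobin-free totals, 507 of 1095 with the mean FPKM filter and 5780 of 25247 with no filter. Limma with pseudocounts of 1 and 0.1 called 1970 and 3560 lower, the 2 groups alone 3109, and fits with a library left out 2928 to 3903. Under TMM and DESeq2 size factors 1137 and 1129 were called higher. For scivMSC against scMSC, 0 were called, 1 by DESeq2 and by limma with a pseudocount of 0.1, and 0 to 1 with a library left out. Of all 5527 tested genes, 1682 were called lower, 1974 by DESeq2, 1944 by that limma fit, and 502 to 2925 with a library left out. Counts divided by 4 left all 6 counts of members as they were, while more of all tested genes were called lower. Against Solvent that fit called 336 of 5527 lower for DNCB, 37 for scMSC and 3345 for scivMSC. Against DNCB it called 1533 lower for scMSC and 3483 for scivMSC, and 1757 for scivMSC against scMSC.

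Signs turned in the comparisons among DNCB-treated groups, where scaling moved the median of all tested genes by 0.69 (scMSC against DNCB), 1.57 (scivMSC against DNCB) and 0.86 (scivMSC against scMSC) between library totals and TMM, on the log2 scale. In scMSC against DNCB the values under TMM, DESeq2 size factors and haemoglobin-free totals were 0.28, 0.24 and 0.0021 for Gzma, 0.52, 0.47 and 0.23 for Prf1, 0.42, 0.38 and 0.12 for Nkg7, and 0.44, 0.39 and 0.16 for Ccl5. In scivMSC against DNCB they were 1.17, 1.16 and 0.14 for Gzma, 1.10, 1.07 and 0.14 for Klrd1 and 1.17, 1.16 and 0.13 for Ccl5. Under TMM and DESeq2 size factors alone they turned for Gzmb (0.082 and 0.050), Prf1 (0.10 and 0.072), Nkg7 (0.89 and 0.87) and Ncr1 (0.076 and 0.062). In scivMSC against scMSC they were 0.89, 0.92 and 0.14 for Gzma, and under TMM and DESeq2 size factors 0.11 and 0.12 for Gzmb, 0.47 and 0.49 for Nkg7, 0.22 and 0.25 for Ncr1, and 0.73 and 0.76 for Ccl5. Leaving out single libraries turned the sign of some values, which lay between -0.64 (Gzmb) and -0.01 (Gzma, both in scivMSC against scMSC) in the main fit. In scMSC against DNCB the ranges were -0.40 to 0.092 for Prf1 and -0.62 to 0.0016 for Ccl5. In scivMSC against DNCB the range was -0.91 to 0.086 for Klrd1. In scivMSC against scMSC they were -0.68 to 0.61 for Gzma, -1.50 to 0.035 for Gzmb and -0.59 to 0.23 for Ccl5. The summed members in DNCB were 41.5% of Solvent, and 35.0% when rescaled without haemoglobin. Where no construction of the alternative shows it, the cause was not tested.

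Replicate numbers did not pair the libraries: 18 correlations of deviations between same-numbered libraries ran from -0.252 to 0.142, 2 of them over 0.1. With the number as a replicate block, the counts against Solvent were 4 for DNCB, 0 for scMSC and 7 for scivMSC, those against DNCB were 0 for scMSC and 3 for scivMSC, and the count for scivMSC against scMSC was 1. Of all 5527 tested genes that fit called 266, 1, 3320, 1470, 3552 and 1905 lower, in the same order.

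With 3 libraries a group, members under 1 FPKM rest on few fragments, 4 to 221 counts per library for Klrk1, Klrb1c and Klre1, so that differences there were not detectable at this depth unless large.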
